A study of Mus musculus with 12 samples.

Results

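The mitochondrial ribosomal protein genes were taken as all genes whose symbol begins with Mrps or Mrpl followed by a number and that were read by at least 1 probe set carrying no other symbol. This gave 76 of the 18193 genes measured, of which 29 carried small subunit symbols (Mrps) and 47 large subunit symbols (Mrpl). They were read by 156 probe sets, and the brightest probe set on average over the 12 arrays stood for the gene. Mrpl30 and Mrpl53 were not measured, since every probe set of theirs carried a second symbol.

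The samples were skeletal muscle of C57Bl/6 mice on 12 Affymetrix arrays, 4 per group. All mice ate chow, with 13% of calories from fat, up to 6 weeks of age. The control group stayed on chow, and the other groups were moved to a high-fat diet (46% of calories) and ate it for 5 or 42 days. The series is about insulin resistance under this diet, and the comparisons ask which transcripts differ after short and after longer feeding. The labels name neither the muscle nor the sex, nor how old the chow mice were when sampled, nor a batch. They also do not say that replicates were separate animals, so p-values measure only the spread between these arrays, which may be technical.

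Mitochondria keep their own ribosome, which makes the few respiratory chain and ATP synthase subunits encoded in mitochondrial DNA. Its RNAs come from that DNA, while its proteins are all encoded in the nucleus, made in the cytosol and imported. The small subunit reads the mRNA, and the large subunit forms the peptide bond and releases the chain at the inner membrane. Muscle depends on this output for oxidative metabolism. Symbol and position differ for a few members: Mrps30 and Mrps18a sit in the large subunit, and Mrps36 belongs to the 2-oxoglutarate dehydrogenase complex.

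Few members changed. At 5 days against chow 1 of 76 members rose, Mrps31, and 0 fell, where 1.6% of all genes rose and 2.2% fell (limma, Benjamini-Hochberg adjusted p under 0.05 over all genes). At 42 days against chow 1 member rose, Mrpl50, and 1 fell, Mrps15, where 2.12% of all genes rose and 3.44% fell. At 42 against 5 days 0 members rose and 2 fell, Mrps15 and Mrps9, where 2.75% of all genes rose and 5.77% fell. By subunit, 3.45% of Mrps and 0% of Mrpl genes rose at 5 days, and 6.9% of Mrps and 0% of Mrpl genes fell from 5 to 42 days, which is 1 and 2 genes and near the shares of all genes. At an unadjusted limma p under 0.05, 17 members (22.4%) were higher and 1 lower at 5 days, where 10.6% of all genes and 22.1% of the 5458 brightest genes were higher. At 42 days 2 were higher and 11 (14.5%) lower, where 13.4% of all and 22.4% of the brightest genes were lower. From 5 to 42 days 1 was higher and 25 (32.9%) lower, where 17.2% of all and 38.2% of the brightest genes were lower. Bulk signal does not tell fewer cells of a type from less RNA per cell.

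Mrpl50, a large subunit protein found in mitochondrial ribosomes and not in bacterial ones, differed most between chow and 42 days. Its log2 signals were 9.88, 9.71, 9.72 and 9.78 on the chow arrays. On the 5-day arrays they were 9.91, 10.02, 9.84 and 10.21. On the 42-day arrays they were 10.20, 10.15, 10.20 and 10.28. Every 42-day array lay above every chow array, and the 5-day arrays overlapped both groups. The log2 fold change was 0.44 ± 0.07 (SE) at 42 days, a 1.35-fold rise (limma adjusted p = 0.00692). At 5 days it was 0.22 ± 0.07, which did not pass the test (adjusted p = 0.0878). The rise at 42 days kept its call without any single array (adjusted p between 0.00335 and 0.031). It was lost with a covariate for the mean of the adipocyte markers (0.40, adjusted p = 0.0679). A second Mrpl50 probe set of similar signal (9.83 against 9.99) gave -0.09 ± 0.07 at 42 days, so the rise belongs to 1 of the gene's 2 probe sets, and the mean of both gave a log2 fold change of 0.17.

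Mrps15, the relative of bacterial S15, which binds small subunit rRNA early in assembly, was lower at 42 days. Its log2 signals were 11.31, 11.40, 11.48 and 11.33 on chow. They were 11.29, 11.37, 11.46 and 11.36 at 5 days. They were 11.14, 11.20, 11.11 and 11.16 at 42 days. All 42-day arrays lay below all 8 others, while chow and 5 days overlapped throughout. Mrps15 fell by 0.23 ± 0.05 on the log2 scale against chow, 1.17-fold (limma adjusted p = 0.0282). It fell by 0.22 ± 0.05 against 5 days, 1.16-fold (adjusted p = 0.0303). A second probe set of the gene fell as well, by 0.21 ± 0.07 and 0.23 ± 0.07 in the fit over all probe sets (adjusted p = 0.0481 and 0.0425), and the remaining dim one was at -0.05 and 0.01. The call was fragile at this number of arrays: against chow it was lost without chow replicate 2 or 3 or any of the 4 42-day arrays (log2 fold change -0.24 to -0.19, adjusted p 0.0519 to 0.0887). Against 5 days it was lost without 5-day replicate 2 or 3 or any of the 4 42-day arrays (-0.24 to -0.19, adjusted p 0.0556 to 0.0881). Quantile normalization (-0.12, adjusted p = 0.18), cyclic loess (-0.12, adjusted p = 0.161) and the mean of its probe sets (-0.15, adjusted p = 0.0743) also ended the call against 5 days. The adipocyte covariate (-0.20, adjusted p = 0.187) and the probe-set mean (-0.16, adjusted p = 0.0532) ended that against chow.

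Mrps9, the relative of bacterial S9, sits in the head of the small subunit, where its tail reaches the tRNA in the P site. Its log2 signals were 10.13, 10.14, 10.38 and 10.14 on chow, with replicate 3 alone high. They were 10.19, 10.41, 10.28 and 10.25 at 5 days. They were 10.03, 9.98, 10.03 and 10.10 at 42 days, below every array of the other groups. Mrps9 fell by 0.25 ± 0.07 from 5 to 42 days, 1.19-fold (limma adjusted p = 0.0356). Against chow the difference at 42 days was -0.16 ± 0.07 (adjusted p = 0.172). The gene's 3 other probe sets gave -0.14, -0.08 and -0.01 at 42 against 5 days, of which none passed. The call was lost without 5-day replicate 2 or 3 or any of the 4 42-day arrays (-0.27 to -0.21, adjusted p 0.0518 to 0.104). It was also lost after quantile normalization (-0.16, adjusted p = 0.122), cyclic loess (-0.15, adjusted p = 0.122), with the mean of its probe sets (-0.12, adjusted p = 0.134) and with plain _at probe sets (-0.14, adjusted p = 0.135).

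Mrps31, a head protein of the small subunit without a bacterial relative, was the 1 member past the test at 5 days. Its log2 signals were 10.16, 10.23, 10.16 and 10.17 on chow. They were 10.35, 10.44, 10.41 and 10.35 at 5 days. They were 10.26, 10.23, 10.29 and 10.34 at 42 days. The 3 groups did not overlap, with 42 days between the others. The log2 fold change at 5 days was 0.21 ± 0.05, 1.15-fold (limma adjusted p = 0.0364), and at 42 days against chow it was 0.10 ± 0.05 (adjusted p = 0.242). A second, dim probe set gave -0.08 ± 0.06 at 5 days. The call was lost without chow replicate 1, 3 or 4, 5-day replicate 2, 3 or 4, or 42-day replicate 3 (0.19 to 0.22, adjusted p 0.0512 to 0.11), and it was lost after quantile normalization (0.13, adjusted p = 0.134), cyclic loess (0.14, adjusted p = 0.114) and with the mean of its probe sets (0.06, adjusted p = 0.369). Array weights, the 8 arrays alone and the adipocyte covariate ended it too, at 0.20 to 0.22 (adjusted p 0.0579 to 0.106).

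**Figure D1:**
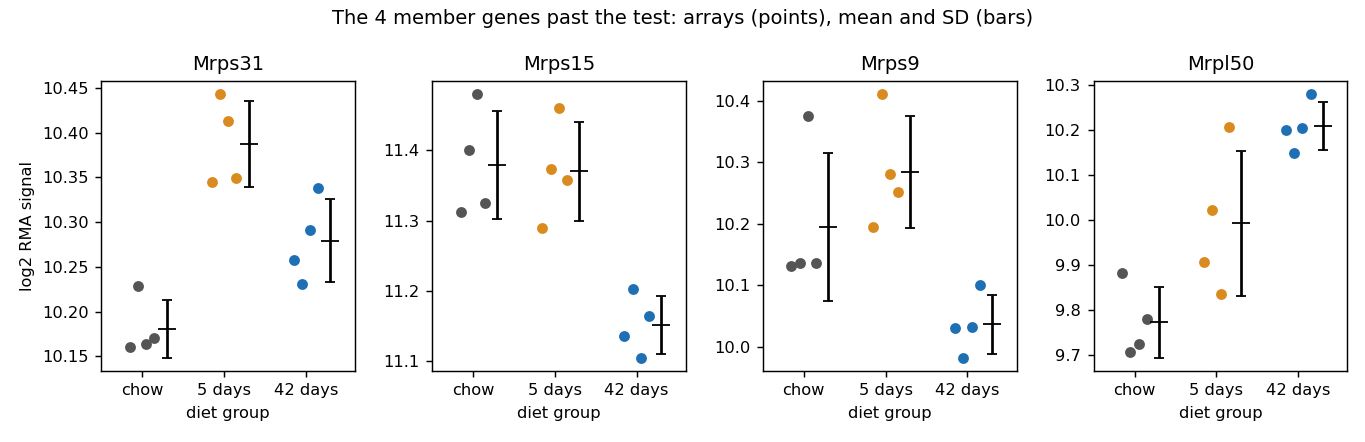
Log2 RMA signal (y axis, its own range in each panel) of Mrps31, Mrps15, Mrps9 and Mrpl50 in the 3 diet groups (x axis); points are the 4 arrays per group and bars are the mean and SD. The 42-day arrays of Mrps15 and Mrps9 lie below all others, and those of Mrpl50 lie above all chow arrays.

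Taken as a whole, with these 4 genes included, the members moved little and mostly together. In the deposited values 22 of 29 Mrps and 39 of 47 Mrpl genes were higher at 5 days than on chow, with median log2 fold changes of 0.06 and 0.08; after quantile normalization of the arrays the counts were 10 and 24 and the medians -0.01 and 0.00. At 42 days 9 Mrps and 16 Mrpl genes were higher than on chow, with medians of -0.06 and -0.03 (quantile normalized 10 and 20, medians -0.03 and -0.01). From 5 to 42 days 29 of 29 Mrps and 44 of 47 Mrpl genes were lower, with medians of -0.11 and -0.10; the exceptions were Mrpl50, Mrpl52 and Mrpl14, and after quantile normalization 12 Mrps and 22 Mrpl genes were higher, with medians of -0.01 and -0.01. Both comparisons with chow share the same 4 chow arrays. All genes had medians of -0.01, -0.01 and 0.01 in the 3 comparisons.

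Arrays of 1 group kept apart from those of another for more members than calls show. At 5 days 6 members lay above all chow arrays (Mrps31, Mrps12, Mrpl4, Mrpl10, Mrpl27 and Mrpl36) and 1 lay below (Mrpl52), where 5.29% and 6.47% of all genes did. At 42 days 3 members lay above chow (Mrpl50, Mrps31 and Mrpl42) and 8 below (Mrps2, Mrps9, Mrps15, Mrps26, Mrpl15, Mrpl23, Mrpl28 and Mrpl33), where 5.19% and 8.66% of all genes did. At 42 against 5 days 0 members lay above and 22 below (11 of each subunit), where 7.17% and 13.3% of all genes did. In percent, 28.9% of members lay below at 42 against 5 days, close to the 31.8% of the genes with similar signal described next.

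Similar signal mattered because the change of a gene went with its brightness on these arrays. Genes were ranked by mean signal and split into 10 equal parts; 75 of 76 members fell into the 3 brightest. Medians over those 5458 genes were 0.06 at 5 days, -0.04 at 42 days and -0.10 from 5 to 42 days, and 74.2%, 35.4% and 17.9% of them were higher. The 75 members had medians of 0.07, -0.03 and -0.10, and 80%, 33.3% and 4% of them were higher. Set against the median of all genes in their own signal class, the Mrps genes stood at 0.00, -0.02 and 0.01 and the Mrpl genes at 0.01, 0.02 and 0.01. Of 76 members, 39, 41 and 42 lay above their class median. From 5 to 42 days 2.63% of members fell and 0% rose, against 13.8% and 0.77% of the genes in the 3 brightest classes. Whether the link between change and brightness is of biological or technical origin was not tested.

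**Figure D2:**
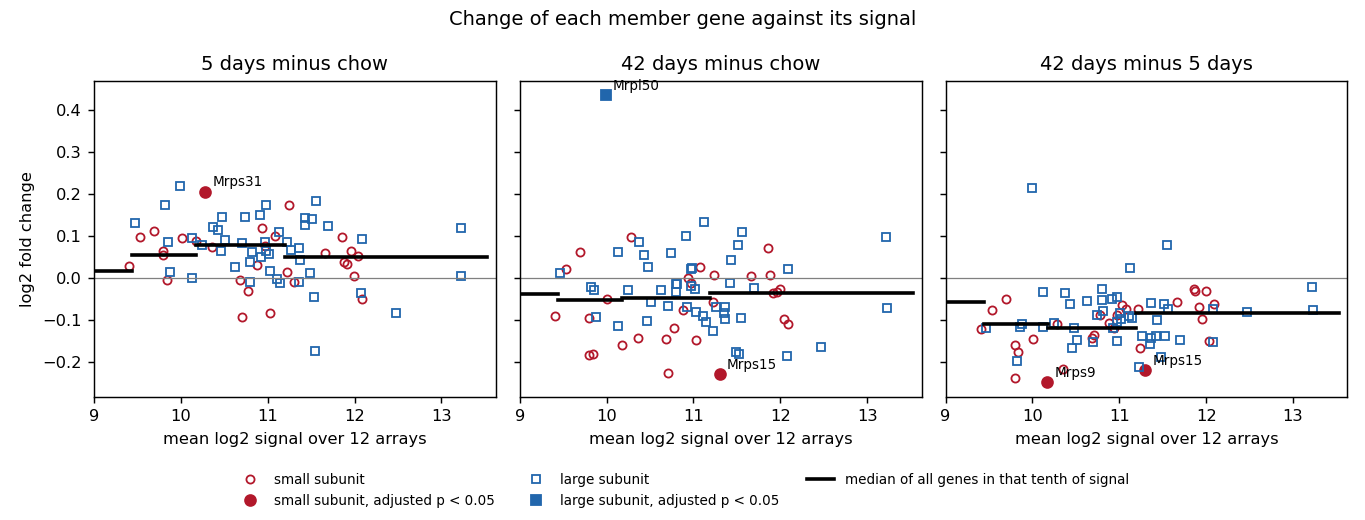
Log2 fold change of each member gene (y axis) against its mean log2 signal over the 12 arrays (x axis) in the 3 comparisons; circles are Mrps and squares Mrpl genes, filled where the adjusted p was under 0.05, and black bars are medians of all genes in a signal class, the brightest drawn only as far as the axis. Member genes scatter around the black bars, which lie above 0 at 5 days and below 0 from 5 to 42 days; quantile normalization took the member medians to between -0.03 and 0.00.

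Single arrays shifted the members as a block within each group. Of 76 members, 69 lay above their own 12-array mean on chow replicate 3 and 5 on chow replicate 4, with 37 and 17 on the other chow arrays. At 5 days the counts were 28, 66, 71 and 68, and at 42 days 7, 29, 6 and 39. Within the chow group the median deviation of the Mrps genes ran from -0.11 on replicate 4 to 0.12 on replicate 3; over all arrays the lowest was -0.13, on 42-day replicate 3. After cyclic loess between arrays the 2 chow arrays were still at -0.09 and 0.08. The mean log2 signal of the 29 Mrps genes was 10.87 ± 0.09 on chow, 10.92 ± 0.05 at 5 days and 10.81 ± 0.05 at 42 days (SD, n = 4). That of the 47 Mrpl genes was 11.01 ± 0.09, 11.08 ± 0.05 and 10.99 ± 0.05. Chow arrays overlapped those of both diet groups, and 5 days overlapped 42 days. Without chow replicate 3 the 42-day medians against chow were 0.00 for Mrps and 0.01 for Mrpl genes, and without chow replicate 4 they were -0.10 and -0.07. The 5-day medians were 0.09 and 0.12 without chow replicate 3 and 0.02 and 0.04 without chow replicate 4.

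**Figure D3:**
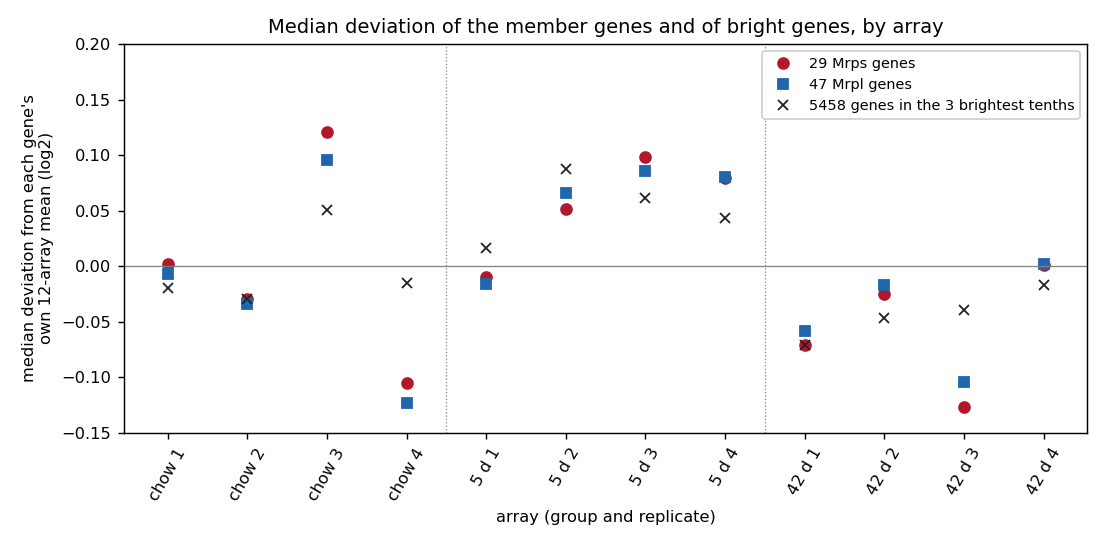
Median over genes of the deviation from each gene's own 12-array mean (y axis, log2) on each array (x axis), for the Mrps genes, the Mrpl genes and all genes in the 3 brightest signal classes. Member medians are highest on chow replicate 3 and, at 5 days, on replicates 2 to 4, and lowest on chow replicate 4 and 42-day replicate 3; bright genes on chow replicate 4 stay near 0.

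**Figure D4:**
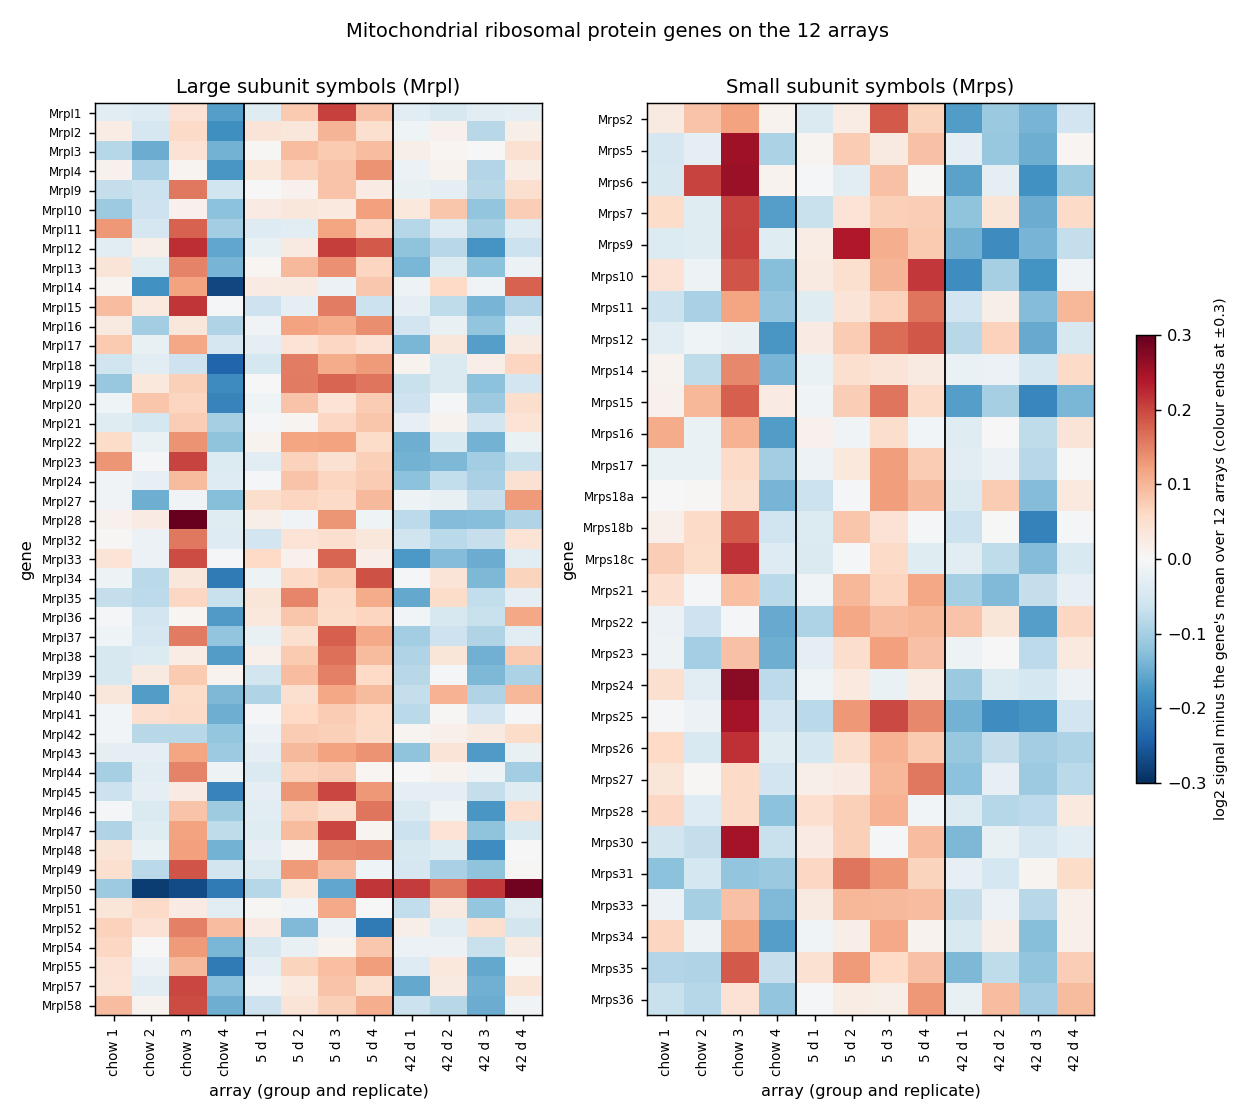
Log2 signal minus the gene's mean over the 12 arrays (colour, ends at ±0.3) for the 47 Mrpl and 29 Mrps genes (y axis) on each array (x axis, groups parted by black lines). Most genes share the colour of their array, and the Mrpl50 line runs from low on chow to high at 42 days.

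Skeletal muscle markers were bright on every array, with a mean over 14 genes of 14.50 to 14.64, and the array medians over all probe sets averaged 7.67, 7.61 and 7.67 in the chow, 5-day and 42-day groups. Several marker lists of other cell types held genes past the test. The mean of 11 measured adipocyte markers ran from 10.98 to 11.77 on chow, highest on replicate 4, from 10.63 to 10.94 at 5 days and from 10.55 to 11.12 at 42 days. Of the 11, 3 fell at 5 days and 1 at 42 days, where 2.2% and 3.44% of all genes fell. The mean of 7 liver markers ran from 7.92 to 8.33 on chow, 7.65 to 9.21 at 5 days and 8.88 to 10.09 at 42 days, and 5 fibroblast and tendon markers averaged 10.81 ± 0.20 on chow, 11.22 ± 0.35 after 5 and 11.47 ± 0.12 after 42 days of the diet (mean ± SD, n = 4 arrays each). Of these, 6 of 7 liver and 2 of 5 fibroblast and tendon markers rose at 42 days against chow, and 0 of either at 5 days. Of all genes 2.12% rose at 42 days and 1.6% at 5 days. The mean of 6 brown adipocyte markers was 9.29 ± 0.39 on chow, 8.70 ± 0.08 at 5 days and 8.86 ± 0.29 at 42 days (SD), and 1 of them fell at 5 days. That of 5 endothelial markers was 9.13 ± 0.09, 9.31 ± 0.15 and 9.21 ± 0.06, and 1 of them rose at each time. Mean levels of the macrophage, lymphocyte, red blood cell and Schwann cell lists overlapped between the groups. So did those of the brown adipocyte and endothelial lists. At 5 days the liver and the fibroblast and tendon means overlapped chow too. Of 2 red blood cell and 5 macrophage markers, 1 each fell at 5 days, and 1 macrophage marker rose at 42 days against chow. From 5 to 42 days 6 of 7 liver and 2 of 5 fibroblast and tendon markers rose, where 2.75% of all genes did. In the same comparison 1 of 4 lymphocyte and 1 of 6 brown adipocyte markers rose. Of 5 endothelial markers 1 fell, where 5.77% of all genes did. The part of the marker lists in the members' values was not tested beyond the adipocyte covariate. Differences between the 3-prime and 5-prime control probe sets overlapped between groups, at 0.709 to 0.865 on chow, 0.75 to 0.893 at 5 days and 0.725 to 0.834 at 42 days.

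Among small subunit genes of the mRNA path, Mrps12, which lies at the decoding centre, was at 0.17 ± 0.06 at 5 days (limma adjusted p = 0.101), with all 5-day arrays above chow, and at 0.01 ± 0.06 at 42 days. Mrps5 and Mrps24, at the mRNA entry, were at 0.03 and -0.05 at 5 days and at -0.09 and -0.11 at 42 days. Mrps2, relative of bacterial S2, was at 0.00 at 5 days and -0.18 ± 0.06 at 42 days (adjusted p = 0.0728), where no array overlapped chow. None of these passed the test in any comparison by its chosen probe set. In the head and body, Mrps7, Mrps22 and Mrps34 stood at 0.02, 0.11 and 0.03 at 5 days and at -0.06, 0.06 and -0.04 at 42 days. Mrps6, relative of bacterial S6, was at -0.23 ± 0.07 at 42 days (adjusted p = 0.0665), but its arrays overlapped chow. The chosen Mrps6 probe set carries the suffix _s_at, which marks possible cross-hybridisation. Its other probe set, of signal 9.35, gave 0.02 ± 0.06 at 42 days. Mrps25 was at -0.18 ± 0.07 at 42 days against chow and at -0.24 ± 0.07 against 5 days (adjusted p = 0.165 and 0.0578). Mrps33 was at 0.12 ± 0.05 at 5 days and 0.00 at 42 days. In the 3 comparisons Mrps16 stayed between -0.03 and 0.00 and Mrps14 between -0.03 and 0.04.

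The 3 relatives of bacterial S18 take different places in the ribosome, and none passed the test. Mrps18a, in the large subunit, was at 0.06 ± 0.06 at 5 days and 0.00 ± 0.06 at 42 days against chow. Mrps18b was at -0.03 ± 0.06 and -0.12 ± 0.06. Mrps18c was at -0.08 ± 0.06 and -0.15 ± 0.06. The members whose position does not follow their symbol did not stand out: Mrps30 was at 0.03 and -0.07, and Mrps36 at 0.10 and 0.07.

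In the large subunit 0 of 47 genes passed at 5 days; at an unadjusted limma p under 0.05, 14 (29.8%) were higher and 1 lower, where 10.6% of all genes and 22.1% of the brightest genes were higher. Mrpl18, relative of bacterial L18, which binds 5S rRNA in bacteria, was at 0.18 ± 0.06 (adjusted p = 0.0888). Mrpl45, which lies at the exit of the peptide tunnel facing the membrane, was at 0.18 ± 0.06 (adjusted p = 0.0983). Mrpl3, near the peptidyl transferase centre, was at 0.15 ± 0.05 (adjusted p = 0.1). Mrpl52 was the lowest at -0.17 ± 0.06 (adjusted p = 0.089), with no overlap between 5 days (11.46 ± 0.11, SD) and chow (11.63 ± 0.05, SD); its lowest 5-day value came from replicate 4. Its other bright probe sets, of signal 10.59 and 10.44, were at 0.04 and 0.09.

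The stalk proteins, which recruit translation factors, gave values of both signs at 42 days. Mrpl10, the stalk base, was at 0.12 ± 0.06 at 5 days and 0.09 ± 0.06 at 42 days. Mrpl12, which carries the factor-binding domain, was at 0.09 ± 0.08 and -0.12 ± 0.08, and at -0.21 ± 0.08 from 5 to 42 days (limma adjusted p = 0.0841), where the arrays did not overlap. Mrpl11, near the stalk, was at -0.01 ± 0.07 and -0.10 ± 0.07, but its probe sets of signal 11.03 and 9.89 fell by 0.27 ± 0.06 and 0.24 ± 0.06 at 42 days (limma over all probe sets, adjusted p = 0.0153 and 0.0272). These probe sets carry the suffix _x_at, which marks possible cross-hybridisation. Around the peptide exit tunnel Mrpl23 was at -0.18 ± 0.06 at 42 days (adjusted p = 0.0771), below all chow arrays, and Mrpl22 and Mrpl24 were at -0.10 and -0.07. In the central protuberance Mrpl27, Mrpl38, Mrpl40, Mrpl46 and Mrpl48 lay between 0.07 and 0.15 at 5 days and between -0.07 and 0.08 at 42 days. Mrpl44, which has a fold of the RNase III family, and Mrpl58, a peptidyl-tRNA hydrolase that also sits in the ribosome, were at 0.03 and 0.00 at 5 days and at -0.03 and -0.11 at 42 days. Mrpl19 was at -0.20 ± 0.06 from 5 to 42 days (adjusted p = 0.063), where the arrays did not overlap. The chosen Mrpl19 probe set carries the suffix _s_at. Mrpl33 and Mrpl28 were at -0.18 ± 0.06 and -0.18 ± 0.07 at 42 days (adjusted p = 0.102 and 0.132). The chosen Mrpl28 probe set carries the suffix _x_at. Another of nearly the same signal (11.53) gave -0.03 ± 0.06 at 42 days, and the dimmest gave -0.08 ± 0.07. None of these genes passed in any comparison by its chosen probe set.

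Probe sets of 1 gene often disagreed. For 42 members with more than 1 probe set, the log2 fold changes of a gene's probe sets spanned a median of 0.19, 0.15 and 0.19 in the 3 comparisons, as wide as most changes reported here. Of 80 further probe sets, 38, 46 and 43 had the sign of the chosen one, and 5, 15 and 2 passed the test, where 3.59%, 10.6% and 7.8% of all single-symbol probe sets did. The chosen probe set is the brightest of its gene, and change went with brightness on these arrays. Genes with a mean signal of 6.93 to 7.46 had medians of -0.08, 0.00 and 0.09 in the 3 comparisons. Those of 10.18 to 11.2 had 0.08, -0.05 and -0.12. The sign counts therefore do not tell disagreement within a gene from this link with brightness. The part of brightness in the counts was not tested. At 42 days against chow 7 of these 42 genes had a probe set that rose, 8 had one that fell, and 2 had both, Mrpl3 and Mrps23. For Mrpl3 a probe set of signal 10.29 rose by 0.35 ± 0.05 (adjusted p = 0.00118), a dim one fell by 0.18 ± 0.05 (adjusted p = 0.0474), and the chosen one, of signal 10.91, was at 0.10 ± 0.05. For Mrps23 a probe set rose by 0.29 ± 0.08, another fell by 0.28 ± 0.08 (adjusted p = 0.0249 and 0.0271), and the chosen one was at 0.03 ± 0.06. The Mrps23 probe set that fell carries the suffix _x_at. A Mrpl9 probe set rose by 0.32 ± 0.06 at 5 days and 0.34 ± 0.06 at 42 days (adjusted p = 0.0268 and 0.00383) while the chosen one was at 0.04 and -0.01. Mrps2 had a probe set of signal 8.96 that rose by 0.19 ± 0.06 at 42 days (adjusted p = 0.0428) against -0.18 for the chosen one. These p-values come from limma over all single-symbol probe sets, and Mrpl3, Mrps23, Mrpl9 and Mrps2 are shown because their probe sets disagreed.

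**Figure D5:**
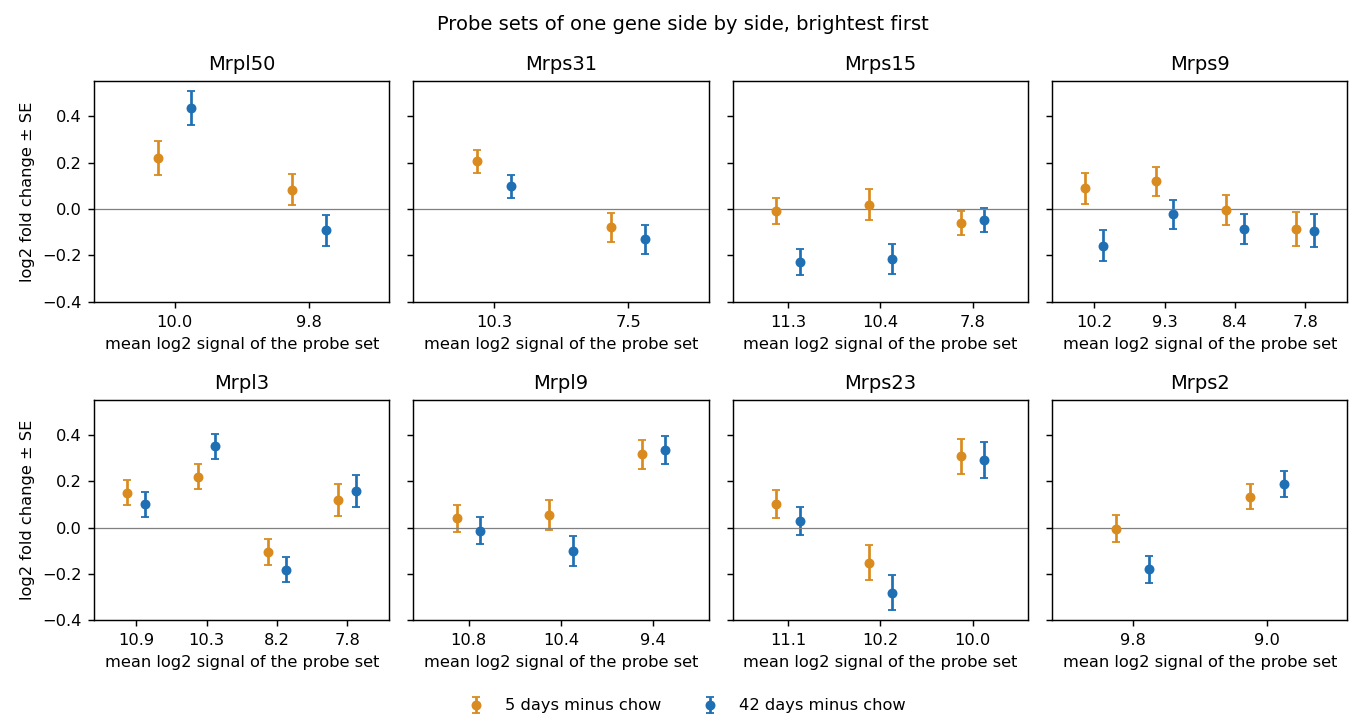
Log2 fold change ± SE (y axis) of every single-symbol probe set of 8 member genes at 5 and 42 days against chow; positions on the x axis are the gene's probe sets, labelled with their mean log2 signal, brightest first. The brightest Mrps15 probe sets fall together at 42 days. At that time the probe sets of Mrpl50, Mrps31, Mrpl3, Mrpl9, Mrps23 and Mrps2 lie on both sides of 0.

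Of the chosen probe sets, 6 had the suffix _s_at and 2 the suffix _x_at, which mark possible cross-hybridisation; the 4 members past the test had none of these. Mrpl23, Mrpl27, Mrpl48 and Mrps36 have pseudogenes of the same name in the reference annotation, so their signals are uncertain.

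Promoters were searched for 3 motifs known from nuclear genes for mitochondrial proteins, and members held each of them in a larger share than all array genes did. The windows, from 250 bases before to 50 after the start in RefSeq's GRCm38.p6 annotation, were found for 67 members and 14368 array genes, and both strands were searched. The ETS-like and GABPA-like motif CCGGAAG was in 37.3% of members, in 21.3% of the genes in the 3 brightest classes and in 15% of all array genes. The YY1-like motif AAGATGGC was in 17.9%, 6.7% and 4.09%. The NRF1-like motif GCGCATGCG, nearly the same on both strands so that 1 site can match 2 times, was in 10.4%, 4.7% and 3.1%. By subunit it was in 14.6% of Mrpl genes and in 3.85% of Mrps genes, which is 1 gene and below the share of the brightest genes. The ETS-like and YY1-like motifs were in 42.3% and 23.1% of Mrps genes and in 34.1% and 14.6% of Mrpl genes. Any of the 3 was in 55.2% of members against 29.7% and 20.5%. Windows of Mrpl50, Mrps15, Mrps9 and Mrps31 held none of these letters. A match is a description of the sequence and was not tied to any value here.

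The 250 bases before the start are shown for Mrpl50 and Mrps15, the genes with calls at 42 days, and, as examples of windows with matches picked after the search, for Mrpl22 and Mrpl32, with matches in capitals, 5′ to 3′ along the gene's strand. They lie at chr4:49521084-49521333 (minus strand), chr4:126046678-126046927 (plus), chr11:58171414-58171663 (plus) and chr13:14613038-14613287 (minus).
Mrpl50: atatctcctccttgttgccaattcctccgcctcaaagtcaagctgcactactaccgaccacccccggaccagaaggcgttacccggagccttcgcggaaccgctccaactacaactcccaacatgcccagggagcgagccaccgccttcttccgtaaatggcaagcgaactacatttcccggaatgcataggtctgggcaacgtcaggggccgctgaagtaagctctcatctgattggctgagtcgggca
Mrps15: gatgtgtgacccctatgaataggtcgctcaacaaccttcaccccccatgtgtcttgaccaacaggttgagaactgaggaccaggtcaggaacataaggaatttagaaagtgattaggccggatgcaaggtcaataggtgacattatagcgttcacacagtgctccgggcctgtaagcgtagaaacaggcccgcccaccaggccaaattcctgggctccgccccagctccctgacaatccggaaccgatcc
Mrpl22: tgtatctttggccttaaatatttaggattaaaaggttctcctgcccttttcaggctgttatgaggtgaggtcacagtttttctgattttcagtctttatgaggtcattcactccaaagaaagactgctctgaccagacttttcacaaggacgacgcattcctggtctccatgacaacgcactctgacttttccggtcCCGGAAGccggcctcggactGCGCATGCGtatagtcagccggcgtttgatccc
Mrpl32: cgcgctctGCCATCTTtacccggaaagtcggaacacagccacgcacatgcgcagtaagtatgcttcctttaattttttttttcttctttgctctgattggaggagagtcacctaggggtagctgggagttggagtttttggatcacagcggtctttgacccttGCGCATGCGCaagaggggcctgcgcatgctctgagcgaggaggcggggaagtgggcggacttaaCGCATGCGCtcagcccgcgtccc

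Mrpl22 pairs an ETS-like match with an NRF1-like one, and Mrpl32 carries NRF1-like matches at 2 places and a YY1-like match, yet neither gene passed the test. Mrpl22 was at 0.06 ± 0.06 at 5 days and -0.10 ± 0.06 at 42 days. Mrpl32 was at -0.01 ± 0.06 and -0.07 ± 0.06.

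Other genes of mitochondrial translation gave a few calls, which are given for the main fit only. Calls over all genes at 5 days and from 5 to 42 days became fewer after quantile normalization and cyclic loess, as given below. Ptcd3, a small subunit protein with another kind of symbol, rose by 0.20 ± 0.05 at 5 days and fell by 0.19 ± 0.05 from 5 to 42 days (limma adjusted p = 0.0465 and 0.0348). It was 1 of 4 measured ribosomal proteins with other symbols in each case, where 1.6% of all genes rose and 5.77% fell. Among the genes in the 3 brightest classes 3.54% rose at 5 days and 13.8% fell from 5 to 42 days. Dap3, a GTP-binding head protein, was at 0.12 ± 0.06 and -0.14 ± 0.06. Of 11 translation factors 2 rose at 5 days, where 1.6% of all genes rose: Gfm1, the elongation factor that moves tRNA and mRNA, by 0.31 ± 0.06 (adjusted p = 0.022), and Mtif2, the initiation factor, by 0.19 ± 0.05 (adjusted p = 0.0458). Gfm2, which works in ribosome recycling, rose by 0.30 ± 0.08 at 42 days (adjusted p = 0.0348), where 2.12% of all genes rose. Tufm, the elongation factor that delivers tRNA, was at 0.12 ± 0.05 at 5 days (adjusted p = 0.143). The 11 factors had medians of 0.12 at 5 days, 0.06 at 42 days and -0.07 from 5 to 42 days.

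Of 19 mitochondrial aminoacyl-tRNA synthetases and related enzymes, Iars2 rose at 5 days by 0.25 ± 0.06 (adjusted p = 0.0435; 1.6% of all genes rose) and Yars2 at 42 days by 0.30 ± 0.08 (adjusted p = 0.0324; 2.12% rose). Lars2 and Qrsl1 fell by 0.19 ± 0.05 and 0.28 ± 0.06 from 5 to 42 days (adjusted p = 0.0348 and 0.0194), where 5.77% of all genes fell. Of 24 genes of ribosome assembly and rRNA modification 0 rose or fell at 5 days (limma; 3 higher and 1 lower at an unadjusted p under 0.05), Mtg1 fell at 42 days by 0.23 ± 0.05 (adjusted p = 0.0249; 3.44% of all genes fell), and Tfb1m, an rRNA methyltransferase, Ngrn and Gtpbp10 fell from 5 to 42 days by 0.24, 0.22 and 0.19 (adjusted p = 0.0241, 0.0487 and 0.032; 5.77% of all genes fell). Of 16 genes of mitochondrial transcription and mRNA upkeep, Lrpprc, which stabilises mitochondrial mRNAs, rose at 5 days by 0.23 ± 0.05 (adjusted p = 0.0374), and Polrmt, the mitochondrial RNA polymerase, fell from 5 to 42 days by 0.28 ± 0.07 (adjusted p = 0.0251), where 1.6% and 5.77% of all genes did so. Tfam, which packages mitochondrial DNA and starts its transcription, was at 0.10 ± 0.06 and 0.04 ± 0.06 against chow. Medians of these 3 groups were 0.09, 0.05 and 0.09 at 5 days and -0.06, -0.13 and -0.14 from 5 to 42 days. Their median signals were 9.33, 9.53 and 10.22, where the 3 brightest classes began at 9.44. Among the genes in those classes 3.54% rose at 5 days and 13.8% fell from 5 to 42 days. At 42 days against chow 3.32% of them rose and 6.3% fell. The counts of the 3 groups were not tested against these shares.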

How the data were processed

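The values were log2 signals per probe set made with RMA, as deposited by the authors; RMA is named in the submitters' processing notes without software or version. Of 45098 probe sets, 34945 carried 1 gene symbol in the array's annotation table. Precision is set by the number of arrays, since they have no read depth.

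Group means of 18193 genes were fitted to the 12 arrays with limma 3.58.1 in R 4.3.3 (lmFit and eBayes), with 3 two-sided contrasts and Benjamini-Hochberg adjustment over all genes within each. Log2 fold changes carry their SE. The procedure was tested on simulated data. Genes named in the text were every member past the test, the 3 highest and 3 lowest members per contrast and subunit, a panel of roles, and past-test genes of 5 context lists. Members whose groups did not overlap, whose probe sets disagreed or whose promoters are shown were named after their values were seen, and the members and lists were chosen with earlier results of these data known. Direction counts and medians have no test. Alternatives were other scalings, filters, probe-set choices, weights, priors, a replicate block, an adipocyte covariate and leaving out each array. Protein sequences were not analysed here.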

Additional observations from a re-analysis of the deposited data

Results flagged for a closer look

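Within a group of 4 arrays, 13 of 141 series of values had 1 array far from the other 3 (Dixon's ratio above its 95% value). For independent series chance gives about 1 in 20. These series share arrays that shifted the members as a block, so the count cannot be set against that rate. High single arrays were chow replicate 3 for Mrps30 (11.13) and Mrps9 (10.38), chow replicate 2 for Mrps31 (10.23), 5-day replicate 3 for Mrpl15 (12.63) and Mrpl51 (13.34), and 5-day replicate 4 for Mrpl10 (10.49). Low single arrays were chow replicate 4 for Mrpl18 (11.32) and Mrps12 (11.07), 5-day replicate 1 for Mrpl19 (9.821), Mrpl3 (10.92), Mrps22 (9.602) and Mrps33 (10.96), and 42-day replicate 2 for Mrpl1 (9.419). These are log2 signals. Of the 13, 4 came from 5-day replicate 1, on which the members lay lower than on the other 5-day arrays.

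The 5-day and 42-day groups differed by the limma test of 42 against 5 days for Mrps15 (-0.2185) and Mrps9 (-0.248), both lower at 42 days on every array.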

How the results depend on the processing

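No called member changed direction under any alternative run. After quantile normalization and after cyclic loess, the median of the Mrpl genes was 0.00298 and 0.0123 at 5 days and -0.00642 and -0.00204 at 42 against 5 days, and that of the Mrps genes was -0.0121 and -0.00842 at 42 against 5 days; centring arrays on their medians took the Mrpl median at 42 against 5 days to -0.162. Without 1 array the Mrps medians lay between 0.0209 and 0.0923 at 5 days, -0.101 and 0.00392 at 42 days and -0.122 and -0.0948 at 42 against 5 days, and the Mrpl medians between 0.0419 and 0.116, -0.0692 and 0.00625, and -0.118 and -0.0743.

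Counts of members past the test depended on the setting. Mrps genes at 5 days (1): 0 after quantile normalization, cyclic loess, averaging probe sets per gene, array weights, the 8 arrays alone and the adipocyte covariate, 2 after centring, 3 with the most variable probe set, and 0 to 1 without 1 array. Mrpl genes at 5 days (0): 7 after centring, 2 with the most variable probe set, 1 with plain _at probe sets, 4 at an adjusted p under 0.1, and 0 to 1 without 1 array. Mrps genes at 42 days (1): 3 without the dimmest 40% of genes, with the most variable probe set and at 0.1, 2 with a trended prior, 0 with the covariate, and 0 to 2 without 1 array. Mrpl genes at 42 days (1): 2 without dim genes, with the trended prior and at 0.1, 6 with the most variable probe set, and 0 with the covariate. Mrps genes at 42 against 5 days (2): 0 after quantile normalization, loess and the probe-set mean, 11 after centring, 7 without dim genes, 1 with plain _at probe sets, 6 with the trended prior, 4 with the 8 arrays alone, 8 at 0.1, and 0 to 4 without 1 array. Mrpl genes at 42 against 5 days (0): 1 after quantile normalization, loess, with the most variable or plain probe sets and with the 8 arrays alone, 13 after centring, 3 without dim genes, 2 with weights and with the trended prior, 6 at 0.1, and 0 to 3 without 1 array. Counts of all genes past the test also moved with the setting, as given below for some settings. The member counts are therefore not a result about the members. The cause of these differences was not tested.

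All genes past the test at 5 days numbered 692, and 208 after quantile normalization, 207 after loess, 1353 after centring (84.3% of them rises against 42.1%), 159 with weights, 7 with the 8 arrays alone, 44 with the covariate, 2073 at 0.1, and 6 (without 5-day replicate 2) to 790 without 1 array. At 42 days they numbered 1011, and 2536 with the most variable probe set, 79 with the covariate, 1872 at 0.1, and 228 (without chow replicate 3) to 1079 without 1 array. At 42 against 5 days they numbered 1550, and 371 after quantile normalization, 363 after loess (44.4% rises against 32.3%), 3465 after centring (7.45% rises), 529 with the probe-set mean, 3682 at 0.1, and 0 (without 42-day replicate 1) to 1972 without 1 array. Of 3351 values of the named members under alternatives, 3240 kept their side of the threshold, 41 lost a call and 70 gained one.

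Replicate numbers did not pair the arrays: correlations within the same number ran from -0.176 to 0.221, with 3 of 12 over 0.1, and the best partner of an array shared its number for 4 of 12. With the replicate number as a block 880, 1051 and 1778 genes passed in the 3 comparisons, and the counts of members did not change.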

Other observations

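Members were also split by whether their protein is named after a bacterial relative or as specific to mitochondria; Mrps18b, though related to bacterial S18, carries a name of the second kind and was counted there. The 16 small subunit genes with a bacterial relative had median log2 fold changes of 0.03 at 5 days, -0.09 at 42 days and -0.11 from 5 to 42 days, and the 10 named as specific to mitochondria had 0.08, -0.04 and -0.11. The 29 large subunit genes with a bacterial relative had 0.09, -0.02 and -0.09, and the 18 named as specific to mitochondria had 0.06, -0.04 and -0.10. The order of the classes was not tested.

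Cytosolic ribosomal proteins (49 genes, listed by symbol after the data were seen) had medians of -0.01, -0.06 and -0.03 in the same comparisons. Oxidative phosphorylation subunits (82 genes, listed likewise) had 0.04, 0.02 and -0.02.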
